A study of Caenorhabditis elegans with 2 samples.

Results

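The proteasome subunit genes of *Caenorhabditis elegans* are described here by the binding of LIN-39, the Hox transcription factor of the worm's midbody, around them. The members are all protein-coding genes whose names in the Ensembl annotation of the ce11 build start with pas-, pbs-, rpn- or rpt-, which gave 33 of 19973 protein-coding genes on the nuclear chromosomes. The rule uses names alone and no measured value. ChIP-seq, in which DNA precipitated with a protein is sequenced, measured binding in whole L3 larvae, both sexes pooled, of strain OP18, whose genotype is given as *unc-119(ed3)* III with the transgene *wgIs18*. The transgene supplies LIN-39 fused to eGFP, and larvae without the fusion protein were not analysed here. Both samples are biological replicates of this single group (eGFP-LIN-39 L3, n = 2), their age in hours is given as unknown, and no condition was contrasted with another. Whole larvae mix all tissues, so a peak does not say in which cells the protein was bound.

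The 26S proteasome is the protease that breaks down proteins tagged with ubiquitin. Its 20S core is a barrel of stacked rings, with the alpha subunits (*pas* genes) forming the gates at both ends and the beta subunits (*pbs* genes) holding the protease sites inside. The 19S regulatory particle caps the barrel, and the ATPases of its base (*rpt* genes) unfold substrates. Its other subunits (*rpn* genes) include ubiquitin receptors in the base and an enzyme in the lid that removes ubiquitin. Subunit genes are known to be controlled together, in worms by SKN-1, a transcription factor of the Nrf family that raises their transcription when proteasome function falls.

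A gene was called bound where the summit of a reproducible peak lay in its body or up to 2000 bp upstream. By this rule 20 of the 33 proteasome genes were bound, 60.6%, while 19.2% of all protein-coding genes were. The regulatory particle had 13 of 19 genes bound and the core 7 of 14. By role, bound genes were 6 of 9 in the lid, 3 of 4 among the base subunits that are not ATPases, 4 of 6 among the base ATPases, 4 of 7 in the beta ring and 3 of 7 in the alpha ring. Bound and unbound genes were thus found in each layer of the complex, and the groups are too small to order them. The 20 genes held 21 reproducible summits, since only *rpt-6* had more than 1. The signal of these peaks, the value that the authors' peak caller gave each peak, ran from 36.4 to 120.1 with a median of 66.4, where all 4250 reproducible peaks had a median of 52.6. The strongest peaks of the whole list, up to 542, therefore lay elsewhere.

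Binding at these genes was not equally visible in the replicates. When each replicate's own relaxed peak list was cut at its 4250 strongest peaks, 14 proteasome genes had a summit in replicate 1 (18.3% of all genes did) and 20 in replicate 2 (19% of all genes). Genes of the regulatory particle numbered 7 in replicate 1 and 14 in replicate 2, and core genes 7 and 6. A summit among the strongest peaks of both replicates was found at 11 genes (13.1% of all genes), not always at the same position. A further 9 genes had one in replicate 2 alone (5.84% of all genes) and 3 in replicate 1 alone (5.15%). Every one of the 33 genes had at least 1 summit in each full relaxed list, in which summits are so dense that 61.5% of all genes had one in the pooled list of both replicates, 66.6% in that of replicate 1 and 53.5% in that of replicate 2.

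**Figure D1:**
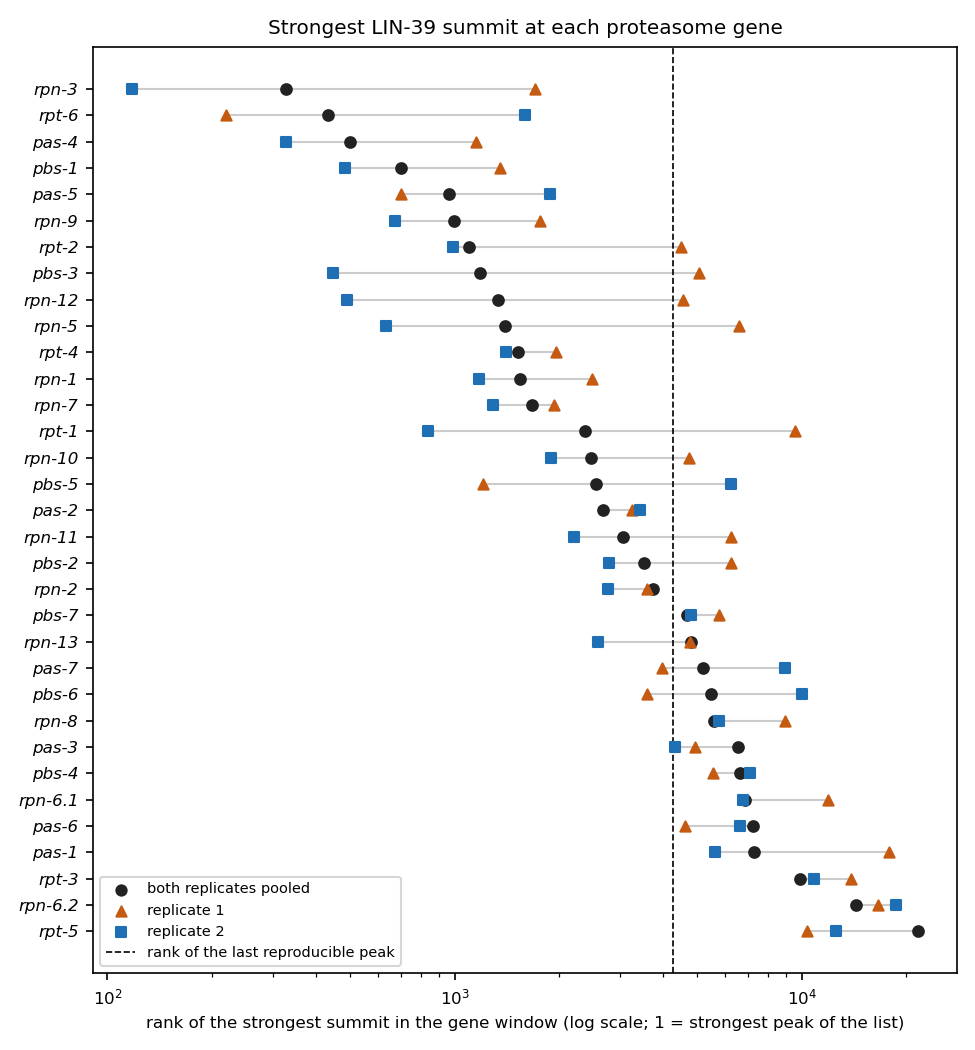
Rank of the strongest LIN-39 summit in the window of each of the 33 proteasome genes (body and 2000 bp upstream) on a log axis, in the pooled list (circles), replicate 1 (triangles) and replicate 2 (squares). The dashed line marks rank 4250, the last reproducible peak; 20 circles lie to its left, led by *rpn-3* at 326, and at most of these genes the square lies left of the triangle.

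In the lid, most members are subunits with a PCI domain, which form its horseshoe-shaped scaffold in yeast and mammals. Of these, *rpn-3*, *rpn-5*, *rpn-7*, *rpn-9* and *rpn-12* were bound, and *rpn-6.1* and *rpn-6.2* were not. Of the lid genes without this domain, *rpn-11* was bound and *rpn-8* was not. *rpn-3* (WBGene00004460, chromosome III, 8447353 to 8449346, plus strand) had the strongest peak of all members, at 8446988 to 8447303, with a signal of 120.1 and rank 326 of the reproducible list. Its summit lay 207 bp upstream of the gene start, and the peak ranked 1702 in replicate 1 and 118 in replicate 2. The same summit was 237 bp from the start of the divergent gene *hsp-110*, which encodes a chaperone of the Hsp110 family. The *rpn-9* summit lay 275 bp upstream and 403 bp from the start of the divergent *T06D8.9*. Its peak (chromosome II, 11239036 to 11239351) ranked 1759 in replicate 1 and 676 in replicate 2 and had a signal of 77.3. *rpn-12* had one of 67.7 at 157 bp upstream (chromosome II, 11652809 to 11653124). This peak lies between *rpn-12* and the divergent *rad-23*, which encodes a shuttle factor that carries ubiquitinated proteins to the proteasome, with the *rad-23* start 238 bp away. It ranked 490 in replicate 2. In replicate 1 the overlapping peak ranked 5198 and had its summit 198 bp away from the reproducible one.

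The other bound lid genes had peaks of middle strength close to their starts. The *rpn-5* summit was 69 bp upstream (signal 66.4; rank 6596 in replicate 1 and 636 in replicate 2), in the space it shares with *scc-1*, which encodes a cohesin subunit. The *rpn-7* summit was 393 bp upstream (signal 60.2; ranks 1941 and 1295) and only 23 bp from the start of the divergent gene *F49C12.9*. *rpn-11* encodes the deubiquitinase that cuts ubiquitin chains off substrates. Its summit fell on the first base of the gene, in a 5′ UTR (signal 41.9; ranks 6247 and 2216), with a second annotated transcript start downstream. Of these genes only *rpn-7* was among the strongest peaks of both replicates.

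In the base, peaks were found at both large scaffold subunits and at a ubiquitin receptor. The *rpn-1* summit lay 351 bp upstream (signal 62.9; rank 2495 in replicate 1 and 1180 in replicate 2) and 419 bp from the start of *ribo-1*, an oligosaccharyltransferase subunit gene on the other strand. The *rpn-2* summit lay 329 bp upstream with a signal of 36.4, the weakest of the 21 (ranks 11278 and 2774). The start of the divergent gene *C23G10.7* was 441 bp from this summit. In replicate 1 the strongest *rpn-2* summit was another one, 239 bp inside the gene at rank 3594. The peak counted for the ubiquitin receptor gene *rpn-10* was 1360 bp upstream (signal 47.6; ranks 4743 and 1898). It lay 118 bp upstream of *mrpl-9*, a mitochondrial ribosomal protein gene that ends 118 bp before *rpn-10* on the same strand, and 238 bp upstream of *kin-3* on the other strand, so that *rpn-10* is the farthest of 3 candidate genes.

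Among the 4 bound base ATPase genes, only the *rpt-1* peak was nearest to the gene's own start, and those of *rpt-2*, *rpt-4* and *rpt-6* were nearer to the start of another gene. The *rpt-2* summit lay 169 bp upstream (signal 73.8; rank 7125 in replicate 1 and 992 in replicate 2) and 132 bp from the start of *aps-1*, an adaptor complex subunit gene. The *rpt-1* summit lay 113 bp upstream (signal 48.8), with no other gene's window over it, and its replicates were far apart, at rank 20437 in replicate 1 and 840 in replicate 2. *rpt-6* had a summit 1421 bp upstream (signal 109, the second strongest of all members; ranks 219 and 1600) and another 793 bp upstream (signal 72.0; ranks 952 and 1610). The first of them lay inside the histone H3.3 gene *his-72*, 15 bp from its start, and *his-72* was the nearest gene start to both. The *rpt-4* summit was inside the gene, in an intron 2376 bp from its first start (signal 63.5; ranks 1962 and 1410). It was 178 bp upstream of the second *rpt-4* transcript start but only 67 bp upstream of *nfyc-1*, an NF-Y subunit gene on the other strand that lies within the intron.

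In the beta ring the bound genes included *pbs-1*, *pbs-2* and *pbs-5*, which carry the numbers of the subunits that are catalytic in yeast and mammals. The *pbs-1* summit was 211 bp upstream (signal 89.1, chromosome IV, 1709798 to 1710113; rank 1353 in replicate 1 and 482 in replicate 2). The *pbs-2* summit was 315 bp upstream (signal 38.1; ranks 25687 and 2780), in the space shared with *eif-6*, a gene of ribosome biogenesis. The *pbs-5* peak was 1165 bp upstream (signal 46.9; ranks 1209 and 6260), in an intron of the gene before it, *K05C4.2*, whose start at 337 bp is the nearest, and it is the only reproducible peak of a proteasome gene that was outside the 4250 strongest of replicate 2. The structural gene *pbs-3* had its summit 140 bp upstream (signal 71.6; ranks 5052 and 448), in the 3′ UTR of *ulp-2*, a SUMO protease gene on the same strand that ends 22 bp before *pbs-3*. In the alpha ring, *pas-4* had the strongest peak (signal 103, 155 bp upstream; ranks 1157 and 328), shared with *rpb-3*, a gene of an RNA polymerase II subunit 122 bp away. *pas-5* had a peak 1131 bp upstream (signal 78.6; ranks 700 and 1889), with its own start the nearest, and *pas-2* one at 130 bp upstream (signal 45.6; ranks 3245 and 3416), 21 bp from the start of *D1054.1*.

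Most of the peaks thus lay in short stretches between gene starts. The strongest summit was 0 to 500 bp upstream of the gene start at 15 of the 20 bound members, with a median of 169 bp among these 15. For the strongest summit of all 3842 bound genes the same range held 42.2%. It lay farther upstream at 4 members (*pas-5*, *pbs-5*, *rpn-10* and *rpt-6*) and inside the gene at *rpt-4*. Counting all 33 genes, 15 had a reproducible summit in the 500 bp upstream, against 8.84% of all protein-coding genes. Reproducible summits inside gene bodies were found at 2 members, *rpt-4* and, on its first base, *rpn-11*, against 5.22% of all genes. The strongest peak lay in the window of at least 1 other protein-coding gene at 17 of the 20, and at 8 another gene's start was nearer than the member's own (*pas-2*, *pas-4*, *pbs-5*, *rpt-2*, *rpt-4*, *rpt-6*, *rpn-7* and *rpn-10*). At the other 12 the member's own start was the nearest. Peak positions alone cannot assign these peaks to a gene.

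The gene order around proteasome genes differs from that of the genome. An upstream neighbour on the other strand with its start at most 1000 bp away, a divergent pair, was found for 20 of the 33 (60.6%), where 17.2% of all protein-coding genes have one. Of those 20 members 12 were bound, and 29.3% of all such genes were. Behind a gene on the same strand that ends within 500 bp lay 8 members, of which 4 were bound, and 15.1% of all such genes were. The share of members bound was above that of all genes in both arrangements.

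**Figure D2:**
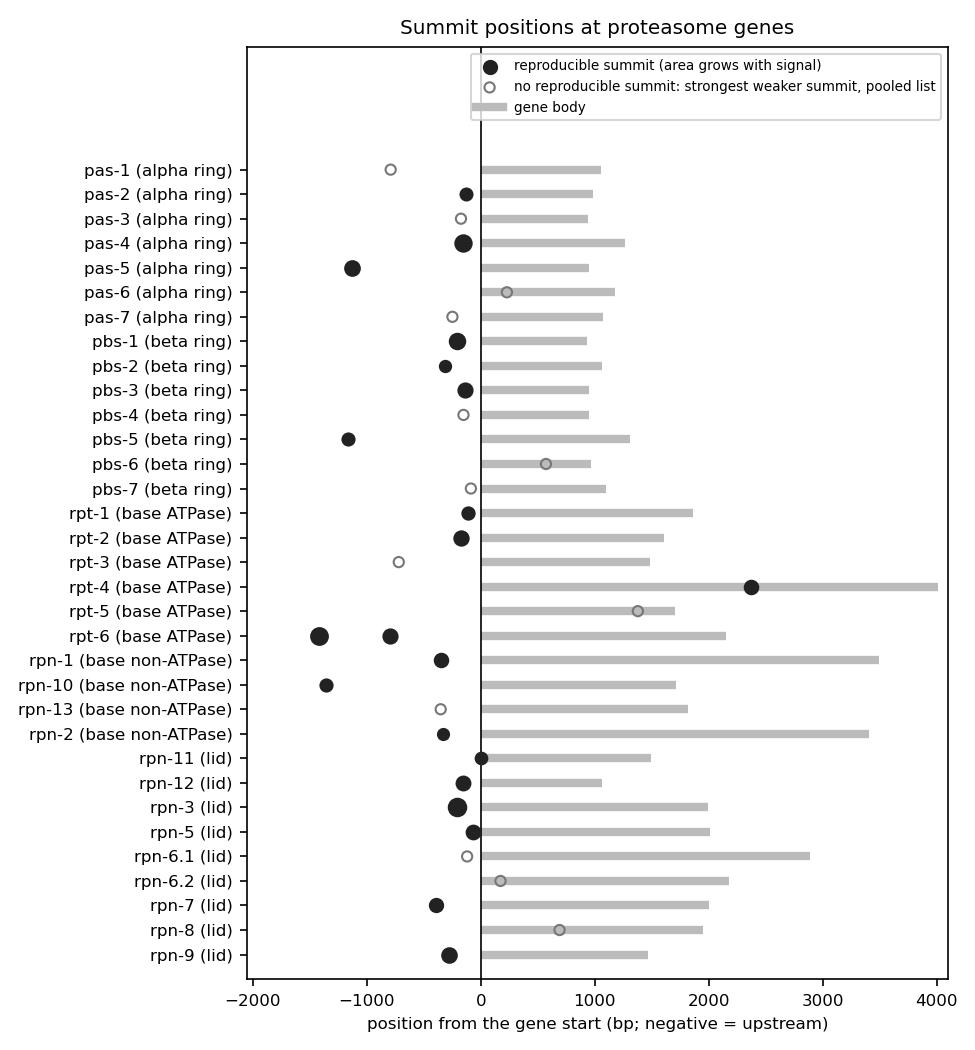
Position of LIN-39 summits relative to the start of each proteasome gene in bp, genes ordered by role, with the gene body as a grey bar. Filled circles are the 21 reproducible summits and open circles the strongest summit of the pooled list at the 13 genes without one; the filled circles cluster within 500 bp upstream of the start at 15 genes.

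The DNA under the summits is shown for 6 bound members of different roles whose windows overlap no annotated exon. Each line holds 101 bases of ce11 centred on the summit, read 5′ to 3′ on the strand of the gene. Capitals mark GTCAT, the core of the binding site of SKN-1, on either strand, and strings of 8 bases that recurred in at least 4 of the 21 windows.
*rpn-3*, chrIII:8447096-8447196, plus strand: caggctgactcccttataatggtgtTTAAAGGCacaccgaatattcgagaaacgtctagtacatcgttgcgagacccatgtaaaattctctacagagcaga
*rpn-12*, chrII:11652917-11653017, plus strand: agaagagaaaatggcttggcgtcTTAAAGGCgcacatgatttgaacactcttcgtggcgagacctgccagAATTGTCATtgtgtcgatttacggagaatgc
*rpn-9*, chrII:11239144-11239244, minus strand: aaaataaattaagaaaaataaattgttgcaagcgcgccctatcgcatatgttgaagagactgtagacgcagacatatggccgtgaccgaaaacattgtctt
*rpn-2*, chrIII:6198805-6198905, plus strand: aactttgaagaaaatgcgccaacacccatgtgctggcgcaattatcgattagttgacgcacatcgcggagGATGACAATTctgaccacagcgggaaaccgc
*rpt-1*, chrV:11982460-11982560, minus strand: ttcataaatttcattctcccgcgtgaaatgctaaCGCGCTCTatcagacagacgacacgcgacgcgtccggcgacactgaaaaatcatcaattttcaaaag
*pbs-1*, chrIV:1709906-1710006, minus strand: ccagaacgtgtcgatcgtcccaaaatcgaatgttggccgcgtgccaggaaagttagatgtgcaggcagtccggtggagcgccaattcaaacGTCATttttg

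The composite motif of Hox proteins with their Pbx cofactor, TGATNNAT on either strand, was not found within 50 bp of any of the 21 member summits, while 8.92% of all 4250 reproducible summits had it and 3.94% of the 1420 that lie 0 to 500 bp upstream of a gene start. It was likewise at none of the 69 strongest peaks of cytosolic ribosomal protein genes. With 21 windows, 0 matches allow a share of up to 15.5% (upper bound of the 95% Wilson interval, which covers the counting of windows only). Within 100 bp, 1 member summit had it, against 15.1% of all. The short homeodomain core TAAT, which can overlap TGATNNAT where its open positions read TA, was found within 50 bp at 7 of 21 member summits, 33.3%, and at 33.9% of all summits. Within 100 bp it was at 16 member summits (76.2%), against 59.6% of all and 66.6% of those 0 to 500 bp upstream of a start. Within 25 bp it was at 3 (14.3%), against 18.3% of all. The other motifs searched were the GATA-type TGATAAG, the E-box CACGTG and the repeat GAGAGA, and none of these lay within 50 bp of a member summit. Within that distance they were found at 0.353%, 3.04% and 28.2% of all reproducible summits. For GAGAGA the share was 23.2% of those 0 to 500 bp upstream of a start and 10.1% of the 69 ribosomal ones. Within 100 bp GAGAGA was at 2 member summits (9.52%), against 44.5% of all.

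Within 50 bp, the SKN-1 core GTCAT was the one motif of the 6 that was more frequent at member summits than at all summits. It lay near 9 of the 21 summits, 42.9% (95% Wilson interval 24.5 to 63.5%), against 16.5% of all reproducible summits, 13.5% of those 0 to 500 bp upstream of a start and 5 of the 69 strongest peaks of cytosolic ribosomal protein genes (7.25%). This interval too covers the counting of windows only and is no test against the other shares. The 9 summits were those of *pas-2*, *pbs-1*, *pbs-2*, *rpn-1*, *rpn-2*, *rpn-7*, *rpn-10*, *rpn-11* and *rpn-12*. Within 25 bp the core was found at 4 of the 21 member summits, against 8.40% of all summits, and within 100 bp at 12 (57.1%, against 28.8%). The extended site of SKN-1 places A or T in its first and second positions, T in the next and G or A before TCAT, and was searched after these values had been seen. It was found at 6 of the 21 summits (28.6%), against 3.34% of all reproducible summits, 2.39% of those close upstream of a start and none of the 69 at ribosomal protein genes. The 6 were those of *pas-2*, *rpn-1*, *rpn-2*, *rpn-10*, *rpn-11* and *rpn-12*. At *rpn-1* the matching letters are ATTATCAT, apart from its GTCAT site, which does not match the extended site. A match is a description of the letters, and SKN-1 itself was not measured.

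The bases around the GTCAT matches are shown for 7 of these members, to compare what lies beside the core, with 10 bases on each side in ce11. *pas-2* and *rpn-11* have a pair of matches each, and the matches of *pbs-2* and *rpn-10* are not shown. Each is read in the direction in which GTCAT, in capitals, runs forwards.
*rpn-2*, chrIII:6198866-6198890, minus strand: ggtcagaattGTCATcctccgcgat
*rpn-11*, chrII:4044505-4044529, minus strand: ccccgcaattGTCATcctcacaatt
*pas-2*, chrV:10770247-10770271, minus strand: cggtgaaattGTCATcattcgaact
*rpn-12*, chrII:11652981-11653005, plus strand: tgccagaattGTCATtgtgtcgatt
*rpn-7*, chrIV:9316257-9316281, plus strand: gcaaacccttGTCATcatccccgcc
*pas-2*, chrV:10770211-10770235, plus strand: cgatgaagtgGTCATaaagcgcgct
*rpn-11*, chrII:4044564-4044588, minus strand: ttgcattgtcGTCATatcgcgcgca
*rpn-1*, chrIV:6910242-6910266, plus strand: taaaggcgcaGTCATcatgccggct
*pbs-1*, chrIV:1709901-1709925, minus strand: caattcaaacGTCATttttgctgca
The first 4 share AATT before the core, and the other 5, among them the second matches at *pas-2* and *rpn-11*, do not. The windows of *pbs-2* and *rpn-10* do not hold AATTGTCA either. The *pbs-1* site lay 43 bp from its summit and the other sites shown 10 to 31 bp. The string ATTGTCAT was in 4 member windows and in 15 of all 4250, the 4 included. It was picked because it recurred in at least 4 member windows, so its count among members follows from that choice.

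Among the member peaks, the difference between replicates varied with position. Of the 15 member peaks 0 to 500 bp upstream of their gene start, 14 ranked higher in replicate 2 than in replicate 1, the exception being *pas-2*. Their median rank was 5052 in replicate 1 and 840 in replicate 2, and 15 were among the 4250 strongest of replicate 2 but only 7 among those of replicate 1. Of all reproducible peaks in this position, 80.8% and 74.2% were. The reproducible list holds the strongest pooled peaks, so a peak could enter it through a high signal in a single replicate. Of the 15, 8 were among the strongest of replicate 2 alone and 0 among those of replicate 1 alone. The count for replicate 2 thus follows in part from how the peaks were chosen. Of the other 6 member peaks, 2 ranked higher in replicate 2, with medians of 1080.5 and 1749.5. Among all reproducible peaks 0 to 500 bp upstream of a gene start, 54.5% ranked higher in replicate 2, with medians of 1956 and 1846. Of all other reproducible peaks 49.6% did, so the lists as a whole were not tilted to this degree. The strongest peaks of ribosomal protein genes also leaned to replicate 2, with 54 of 68 ranking higher there. At genes that work with the proteasome 6 of 11 did, and at chaperonin genes 4 of 6. With a single library on each side, differences between larval cultures, precipitations and sequencing cannot be told apart.

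**Figure D3:**
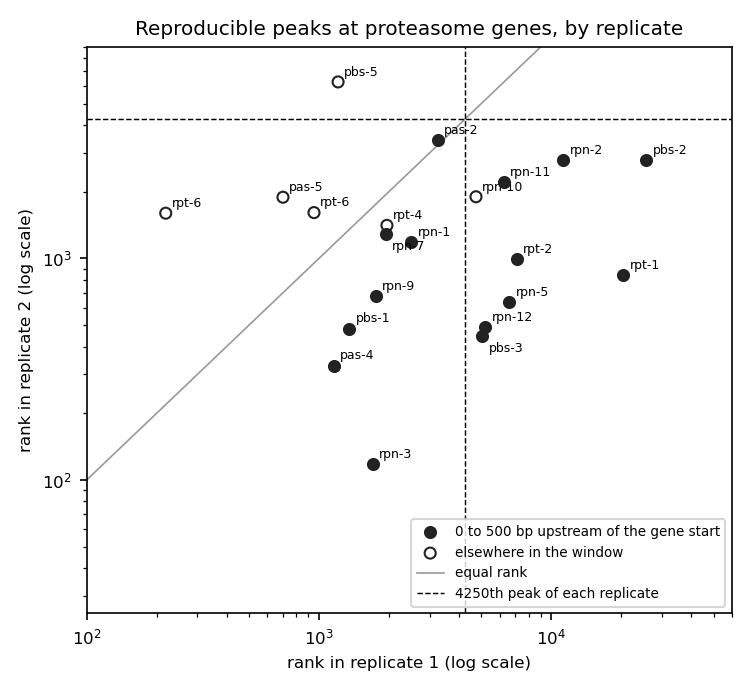
Rank of the 21 reproducible peaks at proteasome genes in replicate 1 and in replicate 2, both on log axes, with peaks 0 to 500 bp upstream of the gene start filled. Of the filled points 14 of 15 lie below the line of equal rank, where replicate 2 ranks the peak higher, and the open points of *rpt-6*, *pas-5* and *pbs-5* lie above it.

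The 13 proteasome genes without a reproducible summit mostly had a peak below the limit of the list. The last reproducible peak had a signal of 33.1. The members nearest to it were *rpn-2* (rank 3726, signal 36.4) and *pbs-2* (rank 3522, 38.1) inside and *pbs-7* (rank 4665, 30.8, 86 bp upstream) and the ubiquitin receptor gene *rpn-13* (rank 4814, 30.1, 351 bp upstream) outside. *rpn-13* ranked 2592 in replicate 2, so that it would be bound by that replicate alone. *pas-7* ranked 5204 with a summit 248 bp upstream and *pbs-6* ranked 5467 with one 573 bp inside the gene, and both were among the strongest peaks of replicate 1, at 3957 and 3587. In the pooled list 10 of the 13 had a summit of rank up to 7500, and 5 of the 13 had their strongest summit inside the gene. Of all protein-coding genes, bound ones included, 28.5% had a summit among the 8000 strongest pooled peaks. A pooled summit of any rank lay in the body of 27 of the 33 members and of 41.4% of all genes.

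The rest of the unbound members spread over a wide range of ranks. *rpn-8* (pooled rank 5578), *pas-3* (6551), *pbs-4* (6658), *rpn-6.1* (6877), *pas-6* (7227) and *pas-1* (7301) followed closely on the genes just named. *rpn-6.1* encodes the lid scaffold subunit whose overexpression is known to raise proteasome activity in worms, and its strongest pooled summit lay 119 bp upstream. Its paralog *rpn-6.2* ranked 14315. The ATPase genes *rpt-3* (9886) and *rpt-5* (21618) had only weak summits, with *rpt-5* last of all 33, and the nearest reproducible summits were 23375 and 34854 bp from their windows. For 2 genes a reproducible summit lay just past the end of the gene, 67 bp at *pas-6* and 136 bp at *pas-3*. Where a run of same-strand genes less than 500 bp apart leads to an unbound member, as for *pas-1*, *rpt-3*, *rpn-6.2* and *rpn-13*, only the first gene before *rpn-13*, *C56G2.9*, had a reproducible summit in its 2000 bp upstream.

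Rank across the full pooled list placed the family well above the genome. The strongest summit had a median pooled rank of 2684 over the 33 members and of 9087 over the 12288 genes with a summit. Among the 1000 strongest peaks 6 members had a summit (18.2%, against 5.76% of all genes), among 2000 there were 13 (39.4%, against 10.7%), and among 8000 there were 30 (90.9%, against 28.5%). In replicate 1 the 1000 strongest peaks held 2 members (6.06%), near the 5.67% of all genes, while the 6000 strongest held 23 (69.7%, against 23.7%). In replicate 2 the 1000 strongest held 9 (27.3%, against 5.91%).

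**Figure D4:**
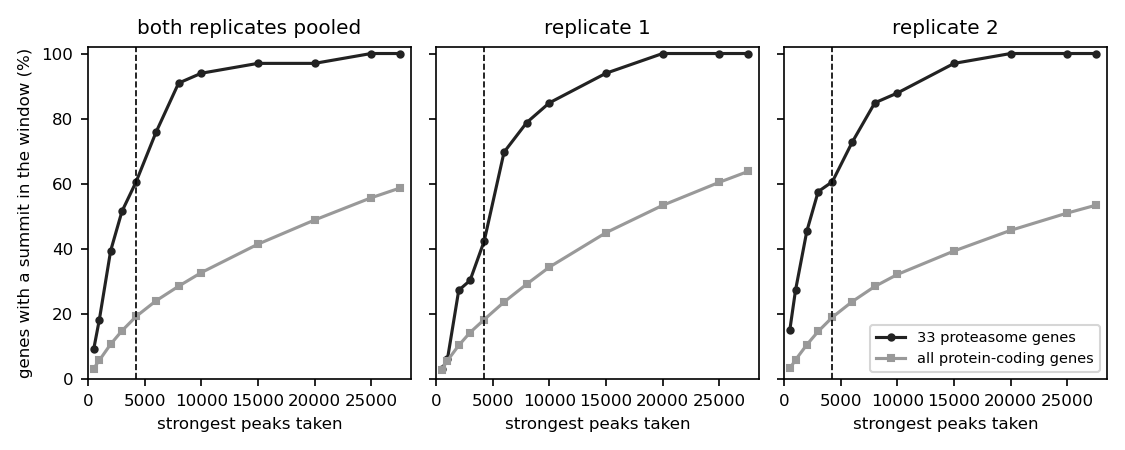
Percent of the 33 proteasome genes (black) and of all protein-coding genes (grey) with a summit in their window, by the number of strongest peaks taken, for the pooled list and each replicate; the dashed line marks 4250 peaks. The black line runs above the grey one, but the lines nearly meet at the left end of replicate 1, at 3.03% and 2.94% for the 500 strongest peaks and at 6.06% and 5.67% for the 1000 strongest.

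Among genes that work with the proteasome, 11 of 22 were bound, against 19.2% of all protein-coding genes. These 11 include *rad-23*, through the peak it shares with *rpn-12*. The strongest was *cdc-48.1* (signal 229, 180 bp upstream), the AAA ATPase that extracts ubiquitinated proteins from complexes and membranes, while its paralog *cdc-48.2* was not bound. The polyubiquitin gene *ubq-1* (132, inside the gene) and *ubq-2* (131, 461 bp upstream), which encodes ubiquitin joined to a ribosomal protein, came next. *skn-1* itself had a reproducible summit, inside the gene (signal 36.3), whereas *png-1* and *ddi-1*, which activate the SKN-1A form, had none. The lid subunit gene *dss-1* and the assembly factor gene *psmd-9*, proteasome genes that the naming rule does not cover, had none either.

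Other multi-subunit complexes were bound to different extents. The COP9 signalosome, whose subunits resemble those of the proteasome lid, had 0 of 6 genes bound, where 19.2% of all protein-coding genes were. With 6 genes, a count of 0 cannot be told apart from that share. The cytosolic chaperonin CCT had 6 of 8, and the cytosolic ribosome 72 of 78. The strongest summits of the proteasome genes had a median signal of 65.0 and rank of 1459.5, those of CCT genes 120.1 and 369.5, those of ribosomal protein genes 113 and 379.5, and those of all bound genes 58.8 and 1755.5. Proteasome genes were therefore bound in lower number and with weaker peaks than ribosomal protein genes, by counts and medians that were not tested.

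**Figure D5:**
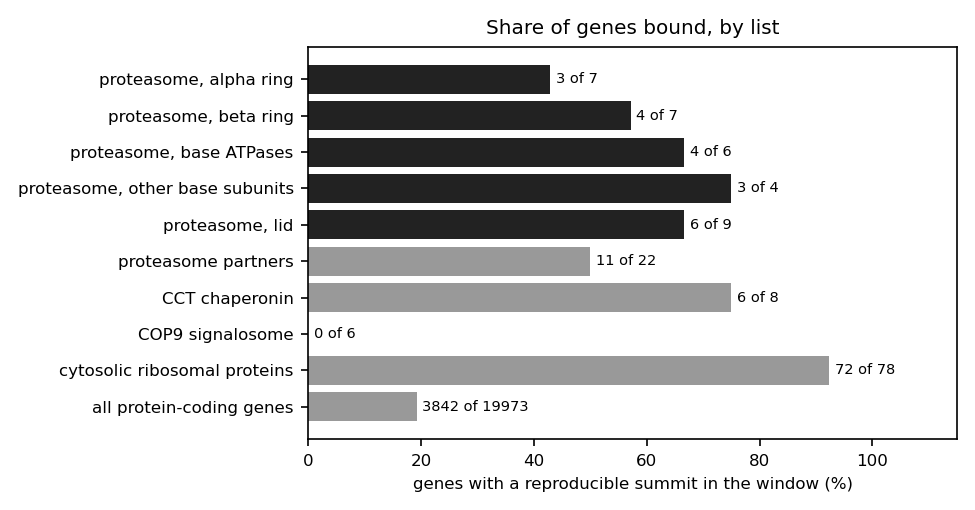
Percent of genes with a reproducible LIN-39 summit in the body or 2000 bp upstream, for the proteasome by role (black) and other lists (grey), with counts beside the bars. All 5 proteasome groups lie between 42.9% and 75.0%, above the 19.2% of all protein-coding genes, and the COP9 signalosome is at 0 of 6.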

How the data were processed

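The deposited files used were 4 peak lists on ce11: reproducible ("optimal") peaks, and relaxed peaks of the pooled replicates and of each alone. Per the labels, fragments of 150 to 350 bp were sequenced. Which aligner, peak caller and reproducibility cut-off were used is not given in the sources used here. Each peak's signal is the authors' deposited value, relative to control alignments that both replicates share per the deposited text files, and was used only for ranks and descriptions within a list. The deposited −log10 q-value is 3.95 for every reproducible peak and was not used. Summit offsets, also deposited by the authors, gave each summit. The reproducible list equals the 4250 strongest pooled peaks. Read depth is unknown. Files on ce10 were not used, since the annotation is on ce11.

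Genes came from Ensembl release 115, and sequence from the NCBI RefSeq copy of the same assembly (Python 3.11.15, numpy 2.4.6, scipy 1.17.1, matplotlib 3.10.9). Positions are 1-based, and peaks of different lists were matched where they overlapped, taking the strongest. The window rule was checked on made-up genes and peaks. All members are named, with full values and the nearest gene start for every bound one; of other lists up to 3 strongest bound genes are named, and those beyond were chosen after their values were seen. Members and lists were chosen with earlier results of these data known. With 1 group of 2 samples there is no contrast, and no test was run.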

Additional observations from a re-analysis of the deposited data

How the results depend on the processing

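When the 4250 strongest peaks of a single replicate replaced the reproducible list, the proteasome genes bound ranged from 14 to 20, core genes from 6 to 7, regulatory particle genes from 7 to 14 and all genes from 18.3% to 19%. Of the 20 bound members, 12 had a summit among the strongest of replicate 1 and 19 among those of replicate 2. The 1000 strongest peaks gave 6 proteasome genes, 3 of the core and 3 of the regulatory particle, with 5.76% of all genes, and the 2000 strongest gave 13, 4 of them core, with 10.7%. The pooled relaxed list gave 33, 14 of them core, with 61.5%. Reproducible peaks that overlap the strongest of both replicates gave 10 proteasome genes, 4 core and 6 regulatory particle, with 12.2%. Counting each summit for the nearest gene start alone gave 13, of which 12 are among the 20 and 8 are in the regulatory particle, with 16.3% of all genes. Here *pas-6* came in through the summit just past its end. A window from 1000 bp upstream to 500 bp downstream lowered all genes to 12.4% with 16 proteasome genes, and the 500 bp upstream alone, added after seeing the data, to 8.84% with 15. Peak overlap, midpoints and windows of 1000 or 5000 bp upstream gave 17 to 23 proteasome genes, with 15.6% to 27.0% of all genes. The median rank of the 20 strongest peaks was 1459.5, against 2870 in replicate 1 and 1237.5 in replicate 2. No paired analysis was possible because there is a single group. Read depth is unknown, so a missing reproducible summit does not show a lack of binding.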

Other observations

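Strings of 8 bases that recurred in at least 4 of the 21 member windows were listed after the windows had been seen, so their counts among members are a consequence of the choice. Of the 6 strings found, 4 contain GTCA on one strand and overlap the SKN-1 core. Of all protein-coding genes with such a string in the 500 bp upstream, 18.1% (AATTGTCA) to 22.8% (GATGACAA) were bound, near the 19.2% of all genes. The other 2 strings were TTAAAGGC and AGAGCGCG. TTAAAGGC lay within 50 bp of the summits of *rpn-1*, *rpn-3*, *rpn-10* and *rpn-12*, at 4 to 23 bp, and of 54 of all 4250 summits (1.27%). Of the summits 0 to 500 bp upstream of a gene start 3.31% had it. In the 500 bp upstream of the start it was found at 7 of 33 members (*pas-5*, *pas-7*, *rpn-1*, *rpn-3*, *rpn-8*, *rpn-9* and *rpn-12*) and at 3.37% of all protein-coding genes, of which 35.0% were bound, against 19.2% of all genes. Of these sites 3 are shown, with the string in capitals.
*rpn-3*, chrIII:8447111-8447138, plus strand: ataatggtgtTTAAAGGCacaccgaata
*rpn-12*, chrII:11652930-11652957, plus strand: gcttggcgtcTTAAAGGCgcacatgatt
*rpn-1*, chrIV:6910231-6910258, plus strand: cagactttgtTTAAAGGCgcagtcatca

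AGAGCGCG lay at summits of *pas-2*, *pas-5*, *rpt-1*, *rpt-2* and *rpt-6* and at 91 of all summits (2.14%), and 3.66% of those 0 to 500 bp upstream of a gene start had it. In the 500 bp upstream it was found at 4 members and at 1.33% of all protein-coding genes, of which 47.5% were bound.
*rpt-6*, chrIII:12369009-12369036, plus strand: aaaagttgggAGAGCGCGcgcgcacacg
*rpt-2*, chrV:6017788-6017815, minus strand: agttctcaccAGAGCGCGcttgcattgt
*rpt-1*, chrV:11982509-11982536, plus strand: tctgtctgatAGAGCGCGttagcatttc
*pas-2*, chrV:10770220-10770247, minus strand: tgagtgcggtAGAGCGCGctttatgacc
No factor is assigned to either string here. Member windows had a median GC content of 46.5% (38.6% to 60.4%) against 48.5% over all reproducible summits.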
